A study of Mus musculus with 26 samples.

Results

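The genes that make sterols and those that sense, move and export them were followed in inguinal subcutaneous white fat of mice that lacked the glucose-responsive transcription factor ChREBP or its shorter isoform. There were 31 named genes, listed for their function in sterol metabolism. They comprised enzymes from acetyl-CoA to cholesterol, the SREBP transcription factors with the proteins that retain them, carriers of sterol within the cell, and the LXR receptors with genes of sterol export. A total of 30 of the 31 had a probe that could be tested, out of 25407 gene names tested and 37074 gene names on the array. Acat2, which encodes the thiolase that starts the route, had no probe under that name and was not analysed here. Where a gene had several probes, the probe with the highest mean was used, and this probe was well above background on all 26 arrays for each of the 30 genes.

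RNA of 26 male C57BL6/J mice was hybridised to 1-colour whole-genome arrays, with 1 array per mouse. Total ChREBP KO mice (n = 7) were Mlxipl-null and lacked both isoforms, and total ChREBP WT mice (n = 7) were the WT mice labelled as their controls. ChREBPβ KO mice (n = 5) carried a CRISPR/Cas9 deletion of the exon specific to ChREBPβ in Mlxipl and kept the gene's other promoter, and ChREBPβ WT mice (n = 7) were the WT littermates of that line. Both deletions were present in all tissues and not in fat alone, which limits them as models of adipocyte ChREBP. All groups had a 24 h fast, after which food and drinking water with 20% glucose were given back for 18 h, and the age of the mice was not given in the sources used here. The comparisons ask what the loss of both isoforms, or of ChREBPβ alone, did to these transcripts in a state that favours ChREBP activity.

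Cells adjust sterol synthesis to demand through SREBP transcription factors. When membranes of the endoplasmic reticulum are rich in sterol, INSIG proteins hold the SREBP escort protein SCAP in place, and when sterol falls, SREBPs are cleaved and switch on the enzymes of the route. An excess of oxidised sterols instead activates LXR receptors, which raise the transporters that pass cholesterol to lipoproteins, and the ubiquitin ligase Mylip, which removes lipoprotein receptors. White adipocytes store a large pool of free cholesterol at the surface of their lipid droplet and make comparatively little of it themselves.

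Promoter sequences are shown for the searched member with the sterol regulatory element core, for an exporter, for Mylip and for the gene of SREBP-1. SREBPs and ChREBP are known to bind short DNA motifs near the start of a gene. The sequences are the 250 bases before the start site in the RefSeq annotation of GRCm38.p6, on the strand of the gene. Capitals mark the sterol regulatory element core TCACNCCAC and the E-box CACGTG, both searched on either strand, and the motifs do not overlap each other.
Hmgcs1, chr13:119690101-119690350, plus strand: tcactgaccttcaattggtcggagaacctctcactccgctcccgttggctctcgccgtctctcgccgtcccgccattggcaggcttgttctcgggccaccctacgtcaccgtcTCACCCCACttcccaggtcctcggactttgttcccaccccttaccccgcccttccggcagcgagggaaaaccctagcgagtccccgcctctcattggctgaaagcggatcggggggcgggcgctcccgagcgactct
Abca1, chr4:53159896-53160145, minus strand: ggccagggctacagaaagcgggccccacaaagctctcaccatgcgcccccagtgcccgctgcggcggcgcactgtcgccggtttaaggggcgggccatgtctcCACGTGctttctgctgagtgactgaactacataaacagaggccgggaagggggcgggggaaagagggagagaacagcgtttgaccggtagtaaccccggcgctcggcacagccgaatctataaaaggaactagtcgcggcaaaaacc
Mylip, chr13:45389492-45389741, plus strand: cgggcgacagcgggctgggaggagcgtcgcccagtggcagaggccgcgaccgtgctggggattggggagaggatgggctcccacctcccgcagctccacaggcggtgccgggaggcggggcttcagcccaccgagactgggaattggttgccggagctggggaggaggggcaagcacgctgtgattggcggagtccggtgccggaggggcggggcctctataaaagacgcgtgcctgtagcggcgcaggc
Srebf1, the most upstream of 3 listed starts, chr11:60222582-60222831, minus strand: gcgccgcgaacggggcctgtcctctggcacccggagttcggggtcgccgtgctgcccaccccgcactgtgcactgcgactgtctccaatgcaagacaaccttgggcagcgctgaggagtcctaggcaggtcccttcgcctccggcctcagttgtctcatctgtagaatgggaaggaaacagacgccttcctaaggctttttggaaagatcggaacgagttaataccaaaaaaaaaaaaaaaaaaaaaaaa
The element of Hmgcs1 began 137 bases before the start and the E-box of Abca1 began 147 bases before it. For 25 of the named genes a promoter was listed, and it was searched from 250 bases before to 50 bases after each start. Fdps, Fdft1, Sqle, Stard4, Npc1 and Abcg1 had no listed promoter and were not searched. Hmgcs1 was the 1 gene of the 25 with the exact sterol regulatory element core, which 1.44% of all 27025 genes held. The E-box was in 6 of the 25 genes, namely Hsd17b7, Sc5d, Dhcr7, Insig1, Scap and Abca1, against 8.09% of all genes. The letters CCAAT, the core of the site of the factor NF-Y, were searched in the same way and were in 20 of the 25 genes against 41.1% of all genes. A match is a description of the letters, and binding was not measured. Variants of the motifs and the carbohydrate responsive element (ChoRE) of ChREBP were not searched.

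The targeted gene was examined first, because it checks the labels. The brightest of 3 Mlxipl probes averaged 13.81 ± 0.15 (SD of log2 intensity, n = 7) for total ChREBP KO and 16.02 ± 0.32 (n = 7) for its WT, and 14.16 ± 0.20 (n = 5) in ChREBPβ KO against 15.70 ± 0.30 (n = 7) in its WT. The probe fell 4.63-fold in total ChREBP KO (limma, adjusted p = 2.14e-12) and 2.90-fold in ChREBPβ KO (limma, adjusted p = 3.22e-06), while a second probe was lower in total ChREBP KO (-0.91, adjusted p = 2.29e-06) but not called in ChREBPβ KO (-0.68, adjusted p = 0.0585), and the other passed the test in neither. Spots well above background made up 70.2% to 76.5% on single arrays, and Pearson's r between arrays was 0.953 to 0.997 across probes. The adipocyte list was well above background on all arrays for all 12 of its markers, which fits the labelled tissue. RNA of other cells differed between the groups: all 15 lymphocyte markers were lower in total ChREBP KO, with list means on the log2 scale of 8.04 to 11.42 in total ChREBP KO, 11.08 to 12.77 in its WT, and 7.34 to 8.99 and 7.31 to 8.33 in ChREBPβ KO and its WT. The skeletal muscle list spanned 6.40 to 13.45, 6.17 to 12.03, 6.70 to 12.88 and 6.22 to 12.23 in the same order, with 3 of its 12 markers higher in total ChREBP KO. Of the adipocyte markers, 11 of 12 were higher in total ChREBP KO, as were 4 of 8 endothelial markers, and 5 of 12 macrophage markers and 7 of 10 thermogenic markers were lower, while the thermogenic marker Dio2 was higher. In such bulk samples, fewer cells of a type and less RNA per cell cannot be told apart.

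Higher in total ChREBP KO were Hmgcs1 and Mvk of the mevalonate route, several late sterol enzymes, Insig1, Insig2, Scap, Nr1h3 and the exporter Abca1. Lower were 3 other late enzymes. In total ChREBP KO, 14 of the 30 members were called at an adjusted p under 0.05, 11 of them higher and 3 lower. Over all 38832 probes, 45.6% were called, 26.3% higher and 19.3% lower, so the members were called about as often as any probe. The median log2 fold change of the members was 0.02, beside 0.05 for all probes. The arrays of KO and WT did not overlap for 8 members, all of them higher in KO, beside 14.2% of all probes. Arrays were also scaled to their 75th percentile in place of quantile normalization, on the processed or on the median signal. In both, 12 members were higher and 1 was lower, since Nsdhl was added and Lss and Cyp51 were lost. Of all probes, 24.1% were then called higher and 21.7% lower on the processed signal, and 21.6% and 20.6% on the median signal.

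**Figure D1:**
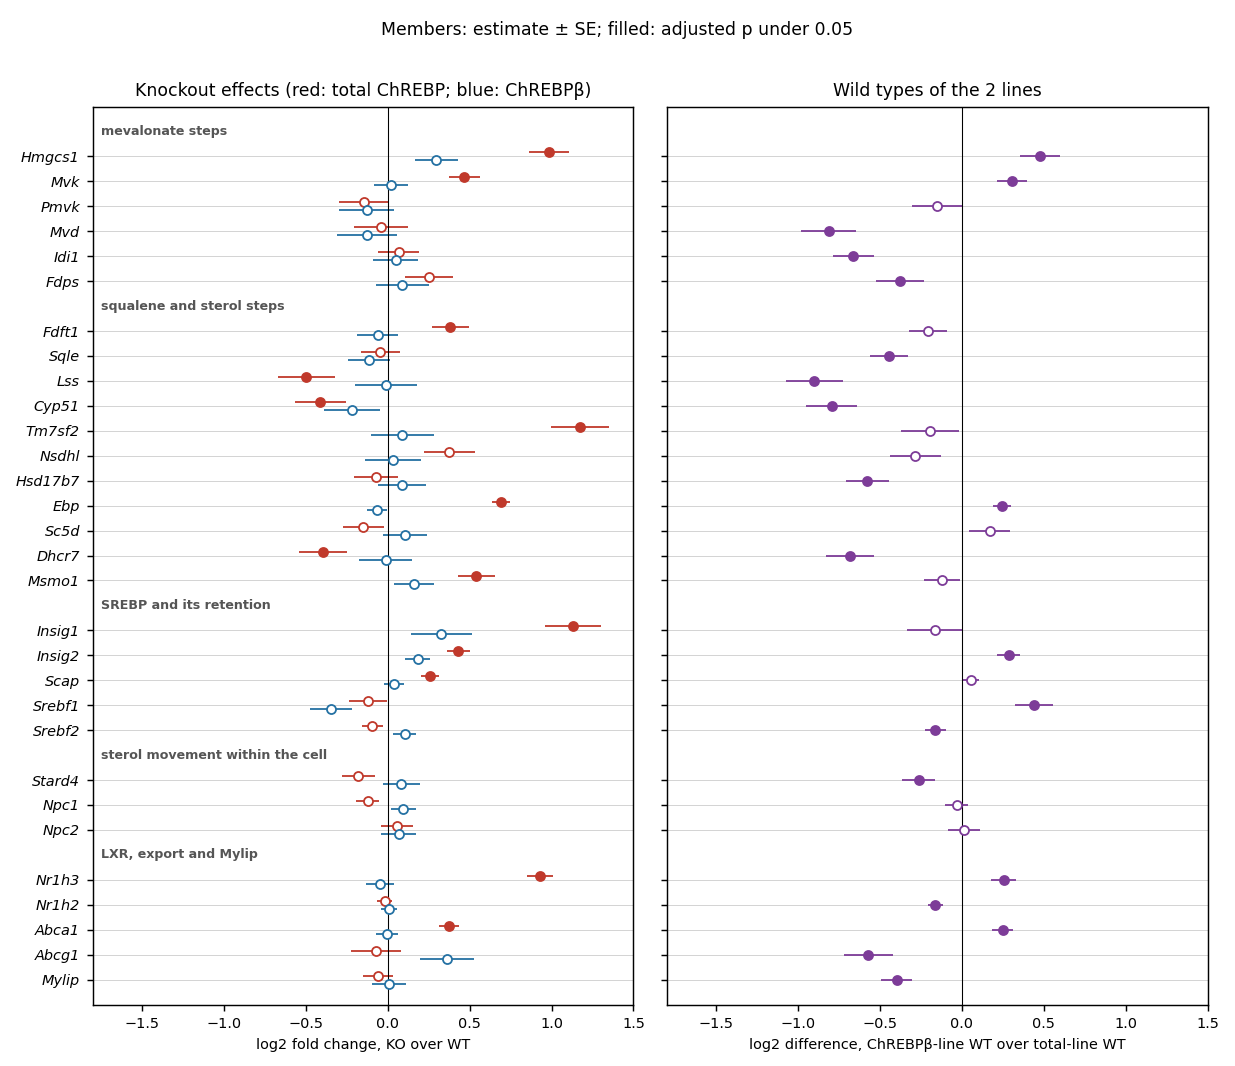
Log2 fold change of each member, as estimate ± SE from limma. The left panel shows total ChREBP KO over its WT in red and ChREBPβ KO over its WT in blue, and the right panel shows WT of the ChREBPβ line over WT of the total line. Filled points have an adjusted p under 0.05. In the left panel 14 red and 0 blue points are filled, and in the right panel 20 are.

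The mevalonate route turns acetyl-CoA into the isoprenoid units from which sterols are built. Of its 6 measured members, 2 rose in total ChREBP KO, Hmgcs1 and Mvk, and 4 were not called, beside 45.6% of all probes called. Hmgcs1, the cytosolic synthase that makes HMG-CoA, ranged from 15.85 to 16.38 (median 16.03) in total ChREBP KO and from 14.72 to 15.38 (median 15.02) in its WT, as log2 intensity at chr13_random:114793-114852 of build mm9. Every KO array was above every WT array, and Hmgcs1 rose by 0.98 ± 0.12 (SE) or 1.98-fold (limma, adjusted p = 5.35e-07). Within the 4 wash batches, the sets of arrays washed together, the KO mean exceeded the WT mean by 0.73 to 1.17. Each batch held only 1 or 2 arrays of either group. A dimmer second Hmgcs1 probe differed by 0.31 and was not called (limma, adjusted p = 0.300). Mvk, the kinase that phosphorylates mevalonate, lay at 13.57 to 14.09 (median 13.86) in KO and 13.07 to 13.66 (median 13.39) in WT, measured at chr5:114910540-114910599. Only the lowest KO array of Mvk lay within the range of WT, and the gene rose by 0.47 ± 0.09 or 1.38-fold (limma, adjusted p = 0.000265). Its second probe was higher by 1.02 in KO. The next enzymes of the route did not pass the test. Pmvk, Mvd, Idi1 and Fdps, which carry the route on to farnesyl diphosphate, had differences of -0.14, -0.04, 0.07 and 0.25 on the log2 scale.

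The late enzymes join farnesyl units to squalene, close the rings and trim the sterol to cholesterol. Of 11 measured, 4 rose (Fdft1, Tm7sf2, Ebp and Msmo1), 3 fell (Lss, Cyp51 and Dhcr7) and 4 were not called (Sqle, Nsdhl, Hsd17b7 and Sc5d). Over all probes, 26.3% were called higher and 19.3% lower. Tm7sf2, a sterol reductase of the endoplasmic reticulum, had the largest difference of all members. Its log2 intensity at chr19:6062882-6062941 was 11.44 to 12.56 (median 12.20) in total ChREBP KO and 10.66 to 11.38 (median 10.96) in WT. The groups did not overlap but the lowest KO array was close to the highest WT array, and the rise was 1.17 ± 0.18 or 2.25-fold (limma, adjusted p = 8.25e-06). Ebp, the isomerase that moves a double bond in the sterol ring, was tighter within groups. At chrX:7762463-7762522 its log2 intensity was 14.23 to 14.46 (median 14.39) in KO and 13.51 to 13.76 (median 13.61) in WT. Ebp rose by 0.69 ± 0.06 or 1.62-fold (limma, adjusted p = 4.88e-10), with 0.59 to 0.78 within the wash batches. Msmo1, which oxidises methyl groups of the sterol, rose from 13.02 ± 0.23 to 13.56 ± 0.18 (SD, n = 7 each, adjusted p = 0.000345 by limma), while the dimmest of its probes differed by 0.08. Fdft1, the squalene synthase, rose by 0.38 ± 0.11 (limma, adjusted p = 0.00793).

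The falls were smaller relative to their spread. Lss, which closes the rings to give lanosterol, spanned 12.06 to 12.79 (median 12.61) in total ChREBP KO and 12.36 to 13.69 (median 12.99) in WT. The wide WT range held most of the KO arrays, and Lss fell by 0.50 ± 0.17 (limma, adjusted p = 0.0218). Cyp51, the sterol demethylase, fell by 0.41 ± 0.16 (limma, adjusted p = 0.0337). Dhcr7, the reductase that yields cholesterol from its precursor, fell by 0.39 ± 0.15 (limma, adjusted p = 0.0318). Each of these 3 calls was lost when any of several arrays was left out. Lss lost it without total ChREBP WT replicate 3 or 4 or total ChREBP KO replicate 5, with estimates of -0.38 to -0.44. Cyp51 lost its call without total ChREBP WT replicate 3, 4 or 5 or total ChREBP KO replicate 3, 4, 5 or 8, and Dhcr7 without total ChREBP WT replicate 3, 4 or 6 or total ChREBP KO replicate 5 or 8. With slide as a fixed block none of the 3 was called. Cyp51 was also not called with its second probe, with array weights or with only the groups compared. It kept its call in 9 of 15 alternative fits. Sqle, the squalene epoxidase and a rate-limiting step, ranged from 13.05 to 13.55 (median 13.26) in KO and 12.92 to 13.76 (median 13.42) in WT. These ranges overlapped over most of their length, and the difference of -0.05 ± 0.12 was not called, with a 95% interval of -0.29 to 0.20 (limma, adjusted p = 0.780). Nsdhl, a dehydrogenase that acts on methyl groups of the sterol, differed by 0.38 ± 0.16 (limma, adjusted p = 0.0508), and its second probe was called at 0.52. Hsd17b7, a sterol ketone reductase, differed by -0.07 and the desaturase Sc5d by -0.15, whereas a second Sc5d probe was called lower at -0.46.

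**Figure D2:**
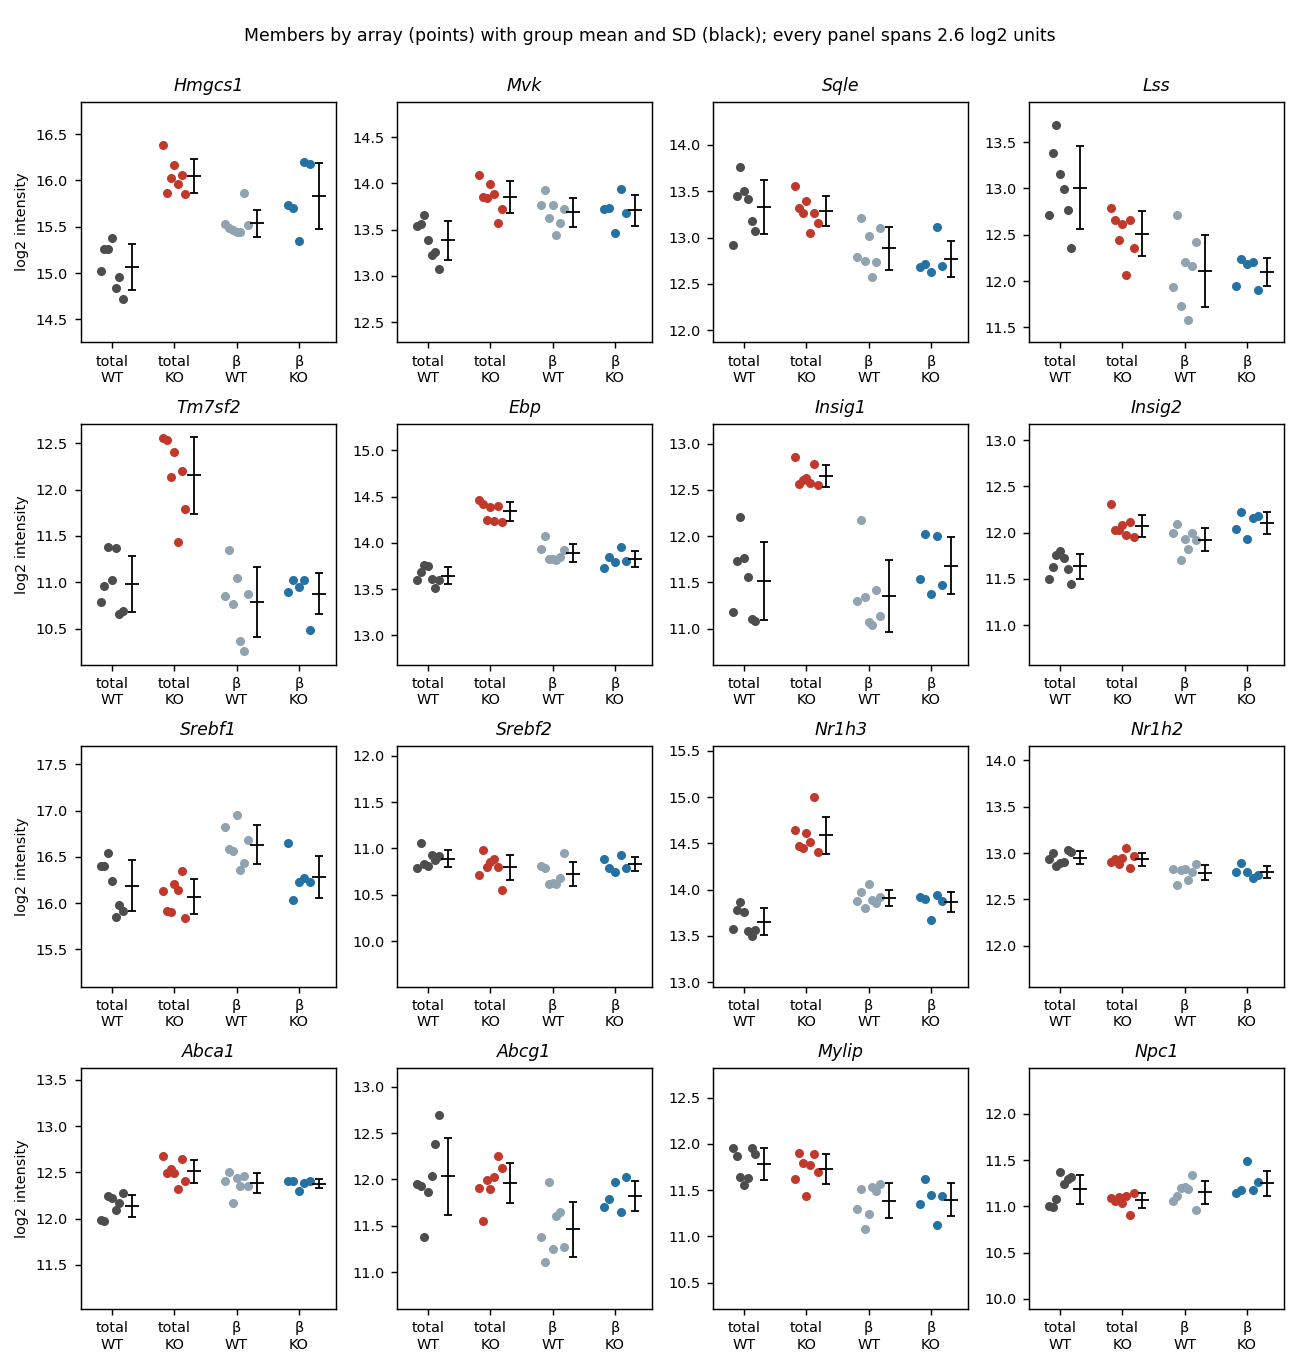
Log2 intensity of 16 members on each array (points), with group means ± SD in black. The 4 groups are total ChREBP WT and KO (n = 7 each) and ChREBPβ WT (n = 7) and KO (n = 5), and every panel spans 2.6 log2 units. For Hmgcs1, Ebp, Insig1 and Nr1h3 the total ChREBP KO points lie above all total ChREBP WT points, and for Sqle, Srebf1 and Abcg1 they overlap.

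Among the SREBP genes, the retention proteins rose and the transcription factors did not pass the test. Insig1, which holds SCAP in the endoplasmic reticulum and is itself an SREBP target, lay at 12.55 to 12.86 (median 12.60) in total ChREBP KO and 11.09 to 12.21 (median 11.56) in WT at chr5:28404246-28404305. All KO arrays stood above all WT arrays, the WT arrays were spread more widely, and Insig1 rose by 1.13 ± 0.17 or 2.19-fold (limma, adjusted p = 8.00e-06). Within wash batches the difference was 0.52 to 1.58. Insig2, its paralogue, lay at 11.96 to 12.31 (median 12.03) in KO and 11.44 to 11.81 (median 11.63) in WT at chr1:123201085-123201144. These groups did not overlap either, and Insig2 rose by 0.43 ± 0.07 or 1.35-fold (limma, adjusted p = 2.25e-05). Scap, the escort of SREBPs, rose by 0.26 ± 0.05 (limma, adjusted p = 0.000351). Srebf1, which encodes SREBP-1, a factor known mainly for fatty acid synthesis, lay at 15.84 to 16.34 (median 16.13) in KO and 15.85 to 16.54 (median 16.24) in WT. The ranges of Srebf1 coincided almost entirely, and the difference was -0.12 ± 0.12 with a 95% interval of -0.36 to 0.12 (limma, adjusted p = 0.422). Srebf2, the main SREBP of cholesterol synthesis, lay at 10.55 to 10.98 (median 10.80) in KO and 10.79 to 11.06 (median 10.88) in WT. Most KO arrays of Srebf2 lay within the WT range, and its difference was -0.09 ± 0.06 with an interval of -0.23 to 0.04 (limma, adjusted p = 0.250).

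None of the 3 carriers of sterol within the cell was called in total ChREBP KO by limma, nor did any have an unadjusted p under 0.05. Of all 38832 probes, 17691 were called and 20336 had an unadjusted p under 0.05. Stard4, a soluble sterol carrier, lay at 9.89 to 10.31 (median 10.09) in KO and 10.02 to 10.62 (median 10.35) in WT, a difference of -0.18 ± 0.10 (limma, adjusted p = 0.158). Npc1, the membrane protein that lets cholesterol out of lysosomes, lay at 10.90 to 11.14 (median 11.09) in KO and 10.99 to 11.37 (median 11.24) in WT, a difference of -0.12 ± 0.07 (limma, adjusted p = 0.164). For both genes all KO arrays lay below the WT median. Npc2, the soluble partner of Npc1, differed by 0.06.

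Of the 5 genes of LXR and export, Nr1h3 and Abca1 rose and Nr1h2, Abcg1 and Mylip were not called. The share called over all probes was 45.6%. Nr1h3, which encodes LXRα and is itself raised by LXR in some cells, lay at 14.40 to 15.00 (median 14.51) in total ChREBP KO and 13.50 to 13.86 (median 13.57) in WT at chr2:91024250-91024309. The groups were apart by more than the range of the WT arrays, and Nr1h3 rose by 0.93 ± 0.08 or 1.91-fold (limma, adjusted p = 1.05e-09), with 0.69 to 1.23 within wash batches. Abca1, which passes cholesterol to apolipoprotein A-I, lay at 12.32 to 12.68 (median 12.49) in KO and 11.98 to 12.27 (median 12.17) in WT at chr4:53043944-53044003. The lowest KO array was just above the highest WT array, and Abca1 rose by 0.37 ± 0.06 or 1.3-fold (limma, adjusted p = 3.41e-05). Its second probe differed by 0.06 and was not called. Abcg1, which passes cholesterol to high-density lipoprotein and is a well-known LXR target, lay at 11.55 to 12.25 (median 11.99) in KO and 11.38 to 12.69 (median 11.95) in WT. The WT arrays of Abcg1 were spread above and below the KO arrays, and its difference of -0.07 ± 0.15 had a 95% interval of -0.39 to 0.24 (limma, adjusted p = 0.726). Mylip differed by -0.06 ± 0.09 (limma, adjusted p = 0.630) and Nr1h2, the gene of LXRβ, by -0.02, although a second Nr1h2 probe was called higher at 0.35.

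The 11 rises kept their calls whichever of the 26 arrays was left out. With the list means of lymphocytes and skeletal muscle as covariates, 9 members were called in total ChREBP KO, 6 of them higher (Hmgcs1 0.69, Tm7sf2 0.88, Ebp 0.54, Insig1 0.79, Scap 0.35 and Nr1h3 0.69 on the log2 scale) and 3 lower (Lss -0.90, Cyp51 -0.72 and Sc5d -0.57). Fewer probes of any kind were called in that fit, 9.06% higher and 4.92% lower. Mvk, Fdft1, Msmo1, Insig2 and Abca1 were no longer called higher. Their estimates of 0.37, 0.32, 0.27, 0.25 and 0.25 on the log2 scale were still above 0, and smaller than those without the covariates. The adipocyte list mean was 15.66 in KO and 15.02 in WT, the macrophage list 10.74 and 11.44, and the thermogenic list 10.58 and 12.50. The part of these shifts in the changes of the members was not tested.

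**Figure D3:**
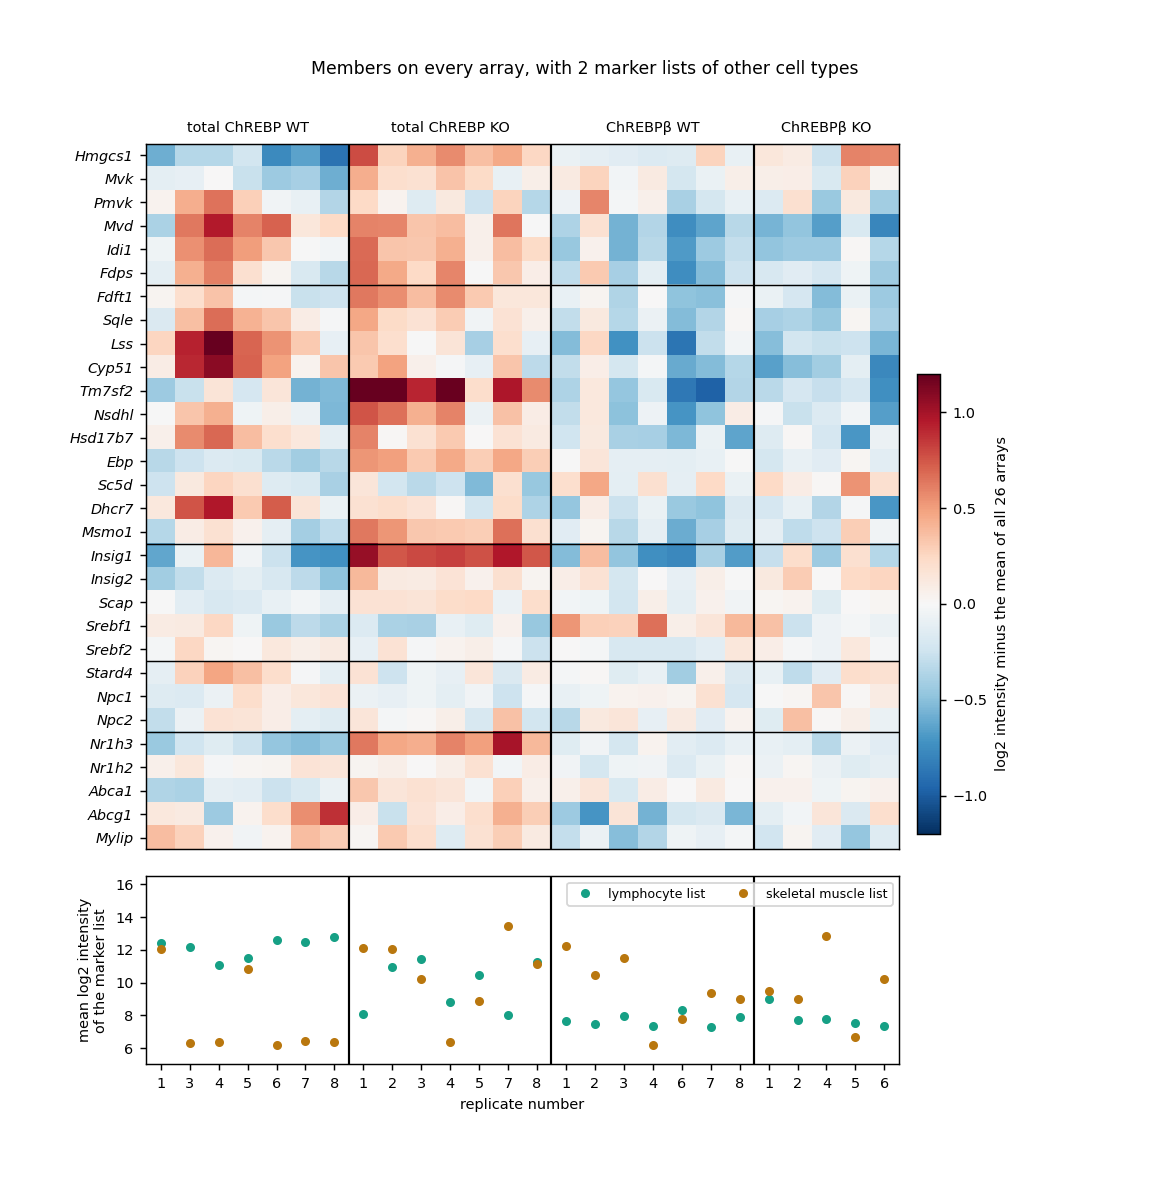
Log2 intensity of each member (rows) on each array (columns) minus its mean over all 26 arrays, with colours ending at 1.2 in either direction, above the mean log2 intensity of the lymphocyte and skeletal muscle lists on the same arrays. Tm7sf2, Insig1 and Nr1h3 are red across total ChREBP KO. Mvd, Lss, Cyp51 and Dhcr7 are reddest on total ChREBP WT replicate 4, and the lymphocyte list is above 11 on all 7 total ChREBP WT arrays and below 9 on all 12 arrays of the ChREBPβ line.

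In ChREBPβ KO, limma called 0 of the 30 members, and 4 had an unadjusted p under 0.05, beside 3072 of all 38832 probes at that threshold. Over all probes, 0.0361% were called. KO and WT arrays were without overlap for 0 members, beside 0.402% of all probes. The median log2 fold change of the members was 0.04, beside 0.01 for all probes, and single members lay between -0.35 for Srebf1 and 0.36 for Abcg1.

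Of the 4 members with an unadjusted p under 0.05, Insig2 and Srebf1 belong to the SREBP genes, Hmgcs1 to the mevalonate route and Abcg1 to export. Hmgcs1 had values of 15.35, 15.70, 15.73, 16.18 and 16.20 in the 5 ChREBPβ KO arrays and 15.44 to 15.87 (median 15.49) in the 7 WT arrays. The KO arrays lay on both sides of the WT range, and the difference was 0.30 ± 0.13 with a 95% interval of 0.02 to 0.57 (limma, adjusted p = 0.581). Insig2 had 11.93, 12.04, 12.16, 12.18 and 12.22 in KO and 11.71 to 12.10 (median 11.93) in WT, a difference of 0.18 ± 0.08 (limma, adjusted p = 0.553). For Srebf1 the KO arrays stood at 16.03, 16.23, 16.23, 16.27 and 16.65 and the WT arrays at 16.36 to 16.96 (median 16.58). Most KO arrays of Srebf1 were below the lowest WT array but the highest was within the WT range, giving -0.35 ± 0.13 with an interval of -0.61 to -0.08 (limma, adjusted p = 0.471). Abcg1 had 11.65, 11.70, 11.79, 11.97 and 12.02 in KO and 11.11 to 11.98 (median 11.38) in WT, a difference of 0.36 ± 0.17 (limma, adjusted p = 0.601).

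The other members that rose in total ChREBP KO had uncalled differences in ChREBPβ KO, of which that of Insig1 was the largest. Insig1 had 11.38, 11.47, 11.54, 12.01 and 12.02 in KO and 11.04 to 12.18 (median 11.30) in WT, and its difference of 0.33 ± 0.19 had an interval of -0.06 to 0.71 (limma, adjusted p = 0.721). Mvk had 13.47, 13.68, 13.72, 13.73 and 13.93 against 13.44 to 13.92 (median 13.72), a difference of 0.02 with an interval of -0.20 to 0.23. The KO values of Mvk spanned nearly the same range as WT. Tm7sf2 had 10.49, 10.90, 10.95, 11.02 and 11.02 against 10.25 to 11.35 (median 10.85), a difference of 0.09 with an interval of -0.31 to 0.49. Ebp had 13.73, 13.80, 13.80, 13.85 and 13.95 against 13.81 to 14.08 (median 13.84), a difference of -0.07 with an interval of -0.19 to 0.06. Of the KO arrays of Ebp, 3 lay below the lowest WT array and 2 above the WT median. Nr1h3 had 13.68, 13.87, 13.90, 13.92 and 13.95 against 13.80 to 14.06 (median 13.89), a difference of -0.05 with an interval of -0.22 to 0.13. Abca1 had 12.29, 12.39, 12.40, 12.41 and 12.41 against 12.17 to 12.50 (median 12.41), and its interval of -0.15 to 0.14 leaves room for small changes either way. The KO arrays of both genes lay within the WT range, except the lowest of Nr1h3. Scap, Fdft1 and Msmo1 differed by 0.04, -0.06 and 0.16. Sqle, with 12.63, 12.69, 12.69, 12.72 and 13.11 against 12.57 to 13.21 (median 12.79), had an interval of -0.38 to 0.15, and Srebf2, with 10.75, 10.79, 10.79, 10.89 and 10.93 against 10.61 to 10.95 (median 10.68), had an interval of -0.04 to 0.25. Stard4 had 9.84 to 10.35 (median 10.05) in KO against 9.73 to 10.20 (median 10.05) and Npc1 11.15, 11.17, 11.18, 11.26 and 11.49 against 10.96 to 11.34 (median 11.19), and the groups overlapped for both. The remaining members were also uncalled, with differences between -0.22 for Cyp51 and 0.11 for Sc5d. In this comparison the lymphocyte list means of KO and WT overlapped.

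Whether the effects of the 2 deletions differed was tested directly as the ChREBPβ effect minus the total effect. In this test 8 of the 30 members were called, all of them lower, beside 22.4% of all probes (9.84% higher and 12.6% lower). The difference was -0.69 ± 0.18 for Hmgcs1 (limma, adjusted p = 0.00837), -0.45 ± 0.14 for Mvk (adjusted p = 0.0230), -1.08 ± 0.26 for Tm7sf2 (adjusted p = 0.00449) and -0.76 ± 0.08 for Ebp (adjusted p = 5.49e-07). Among the sensing and export genes it was -0.80 ± 0.25 for Insig1 (limma, adjusted p = 0.0231), -0.22 ± 0.08 for Scap (adjusted p = 0.0479), -0.98 ± 0.12 for Nr1h3 (adjusted p = 2.02e-06) and -0.38 ± 0.09 for Abca1 (adjusted p = 0.00518). For these members the rise in total ChREBP KO exceeded the change in ChREBPβ KO. For Insig2, Fdft1 and Msmo1, which also rose in total ChREBP KO, the difference of -0.25 ± 0.10, -0.44 ± 0.17 and -0.38 ± 0.17 was not called (limma, adjusted p = 0.0860, 0.0616 and 0.101). Without ChREBPβ KO replicate 4, 5 members were called, since Mvk (-0.39), Insig1 (-0.73) and Scap were lost, and the call of Scap was kept in 6 of 26 fits that each left out 1 array. With the lymphocyte and muscle list means as covariates 3 were called, Ebp at -0.60, Nr1h3 at -0.72 and Sc5d at 0.70, beside 2.21% of all probes higher and 3.49% lower.

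The WT mice of the lines differed in these genes as well. Mlxipl itself was lower in ChREBPβ WT than in total ChREBP WT on 2 of its 3 probes, by -0.33 (limma, adjusted p = 0.0465) and -0.38 (limma, adjusted p = 0.0140). When ChREBPβ WT was set against total ChREBP WT, 20 of the 30 members were called, 7 higher and 13 lower, beside 45.2% of all probes (25.8% higher and 19.4% lower). With the median signal scaled to the 75th percentile, 43.9% of all called probes were higher in place of 57.0%, and of the members 6 were higher and 10 lower. This comparison shares its WT arrays with both KO comparisons, and line, litter and breeding cannot be told apart in it. The enzymes that were lower included Lss at -0.90 ± 0.17 (limma, adjusted p = 0.000143), Mvd at -0.81, Cyp51 at -0.79, Dhcr7 at -0.68, Idi1 at -0.66, Hsd17b7 at -0.58, Sqle at -0.45 and Fdps at -0.38. The 3 Lss probes disagreed, the others being at -0.93 and, uncalled, at -0.00028, and with slide as a fixed block Lss was not called at -0.69. Hmgcs1 was higher by 0.47 ± 0.12 (limma, adjusted p = 0.00249), Mvk by 0.31 and Ebp by 0.24. Of the sensing genes, Srebf1 was higher by 0.44 ± 0.12 (limma, adjusted p = 0.00327) and Insig2 by 0.29, and Srebf2 was lower at -0.16. All 5 genes of LXR and export were called, with Nr1h3 at 0.25 and Abca1 at 0.25 higher, and Abcg1 at -0.57 ± 0.15 (limma, adjusted p = 0.00338), Mylip at -0.40 and Nr1h2 at -0.16 lower. Stard4 was lower at -0.26, and Npc1 and Npc2 were not called. The lymphocyte list means of ChREBPβ WT and total ChREBP WT did not overlap, at 7.31 to 8.33 and 11.08 to 12.77. Nor did those of the thermogenic list, at 9.69 to 10.81 and 10.87 to 13.28, or the adipocyte list, at 15.33 to 15.55 and 14.68 to 15.27. The macrophage list overlapped, at 11.75 to 12.83 and 10.75 to 12.45. With the lymphocyte and muscle list means as covariates 7 members were called, all lower, beside 1.3% of all probes higher and 1.93% lower. In that fit the estimates turned to -0.14 for Hmgcs1, -0.03 for Ebp, -0.09 for Insig2, -0.03 for Srebf1 and -0.23 for Nr1h3. The part of the lymphocyte, thermogenic, adipocyte and macrophage lists in the difference of the WT groups was not tested.

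The synthesis enzymes were mostly positively correlated between mice of a group. Over all 26 arrays, with each group centred on its own mean, the 17 measured synthesis enzymes gave 136 pairs, all with a Pearson's r above 0. Their median r was 0.72 (0.03 to 0.95), beside 0.009 over all pairs of probes, most of which lay between -0.471 and 0.507. The median was 0.82 in the 7 total ChREBP WT arrays, 0.73 in total ChREBP KO and 0.79 in ChREBPβ WT. Pairs above 0 numbered 136, 134 and 123 of 136 in these groups, and the lowest r in ChREBPβ WT was -0.56. These values describe the arrays, whose points share RNA quality, dissection and scaling, and no test was made of them. The median was 0.67 with the lymphocyte and muscle list means removed, 0.69 with wash batch removed and 0.81 with the processed signal scaled to the 75th percentile.

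Sensing genes followed the enzymes to different degrees. The median r with the 17 enzymes was 0.70 for Insig1, 0.62 for Insig2, 0.52 for Nr1h3, 0.36 for Srebf1, 0.32 for Abca1 and 0.27 for Srebf2. Stard4 had 0.43 and Npc2 0.45. The groups differed for Stard4, with 0.88 in total ChREBP WT, -0.30 in total ChREBP KO and 0.55 in ChREBPβ WT. Abca1 had -0.08, 0.77 and 0.44 in the same groups. The exporter Abcg1 ran the other way, with a median r of -0.65 and all 17 values below 0 (-0.83 to -0.29), also with the list means removed and under both other scalings. Npc1 had -0.33 and Mylip -0.29. Scap and Nr1h2 had -0.14 and -0.38 but 0.22 and 0.30 with the processed signal scaled to the 75th percentile, so the sign of these depends on the scaling. Across the same arrays the enzymes had r of -0.68 to -0.21 with the lymphocyte list mean and 0.13 to 0.66 with the adipocyte list mean, -0.72 to -0.17 with the macrophage list mean and 0.13 to 0.74 with the thermogenic list mean, and Abcg1 had 0.65 with the macrophage list mean.

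**Figure D4:**
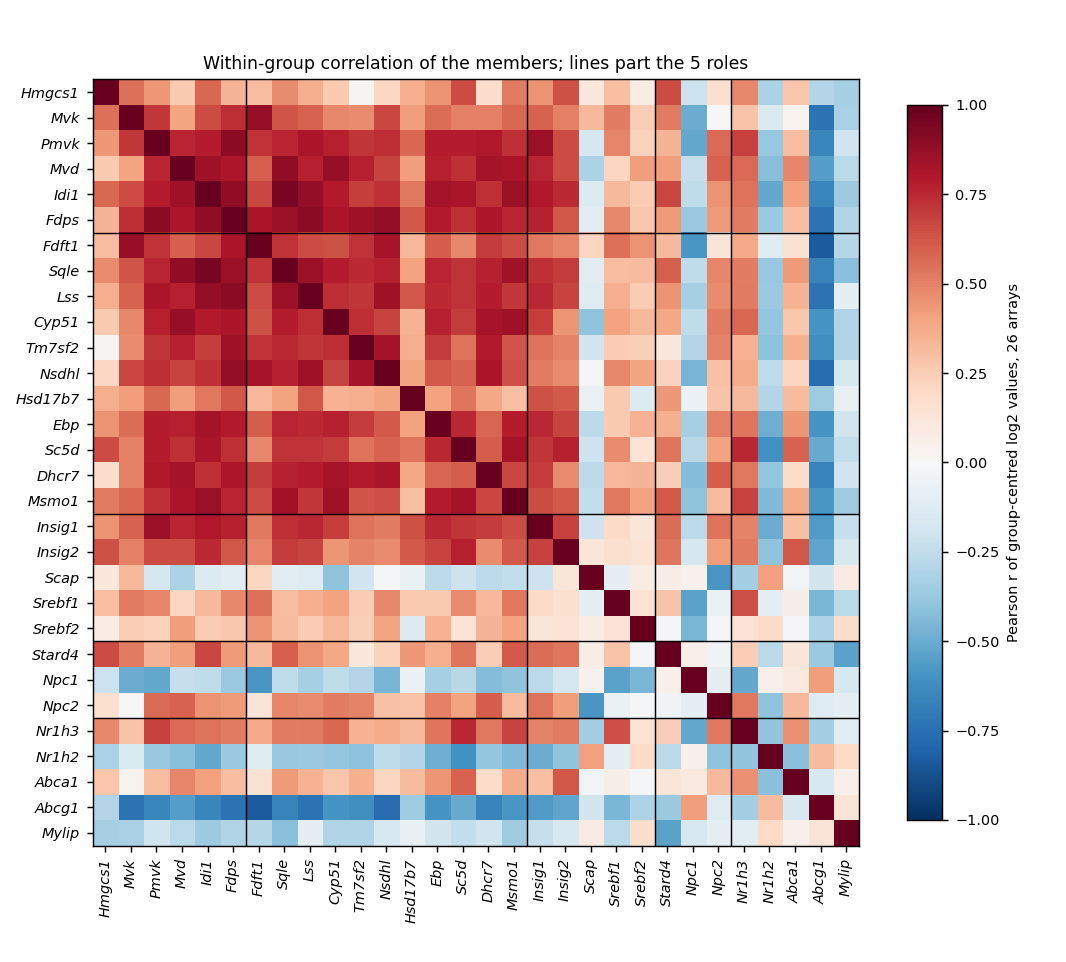
Pearson's r between members over 26 arrays after each group was centred on its mean, with members in order of their role and lines between the 5 roles. The block of synthesis enzymes at the upper left is red throughout (0.03 to 0.95), Insig1 and Insig2 continue it, and the row of Abcg1 is blue against the enzymes (-0.83 to -0.29).

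A set of 8 pairs was tested over the 26 group-centred arrays with 100000 permutations each, two-sided, and Benjamini-Hochberg adjustment over the 8. Hmgcs1 with Sqle had r = 0.47 (permutation p = 0.0223, adjusted p = 0.104) and rho = 0.45 (permutation p = 0.0266, adjusted p = 0.0987), and r = 0.39 without the 2 arrays farthest from the median of Hmgcs1. Hmgcs1 with Insig1 had r = 0.45 (permutation p = 0.0329, adjusted p = 0.104) and rho = 0.50 (permutation p = 0.0220, adjusted p = 0.0987), and r = 0.37 without the 2 farthest arrays. Within groups of 7 these pairs differed widely, with r of 0.80 and 0.84 in total ChREBP KO, 0.63 and 0.74 in its WT, and -0.20 and 0.13 in ChREBPβ WT. Abca1 with Nr1h3 had r = 0.46 (permutation p = 0.0389, adjusted p = 0.104) and rho = 0.45 (permutation p = 0.0370, adjusted p = 0.0987), and r = 0.43 without the 2 farthest arrays. Hmgcs1 with Srebf2 had r = 0.07 (permutation p = 0.713, adjusted p = 0.815) and rho = 0.13 (permutation p = 0.50, adjusted p = 0.666), and r = -0.08 without the 2 farthest arrays. Srebf1 with Insig1 had r = 0.19 (permutation p = 0.415, adjusted p = 0.665) and rho = 0.19 (permutation p = 0.416, adjusted p = 0.666), and r = 0.09 without the 2 farthest arrays. Abca1 with Abcg1 had r = -0.15 (permutation p = 0.531, adjusted p = 0.708) and rho = -0.08 (permutation p = 0.727, adjusted p = 0.778), and r = 0.04 without the 2 farthest arrays. Abca1 with Mylip had r = 0.05 (permutation p = 0.83, adjusted p = 0.83) and rho = 0.06 (permutation p = 0.778, adjusted p = 0.778), and r = -0.13 without the 2 farthest arrays. Hmgcs1 with Abca1 had r = 0.28 (permutation p = 0.148, adjusted p = 0.295) and rho = 0.25 (permutation p = 0.203, adjusted p = 0.406), and r = 0.24 without the 2 farthest arrays. None of the 8 passed the adjustment.

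Other sterol genes that were not members were read from a list of 23 tested genes, of which 6 were higher and 7 lower in total ChREBP KO (median log2 fold change -0.20, beside 0.05 for all probes). Of all probes, 26.3% were called higher and 19.3% lower. Gramd1b, a carrier of sterol from the plasma membrane, was higher by 0.98 ± 0.11 (limma, adjusted p = 1.18e-07). Among the others that rose, the receptor gene Lrp1 was higher by 0.80, the lipoprotein receptor gene Scarb1 by 0.49, and the oxysterol-binding protein genes Osbpl2 and Osbp by 0.40 and 0.36. Genes of the cholesteryl ester cycle were among the lower ones, with Soat1, which esterifies cholesterol, at -1.07 ± 0.22 (limma, adjusted p = 0.000336), and the hydrolases Nceh1 at -1.2 and Lipa at -0.38. The sterol hydroxylases Cyp27a1 and Ch25h were lower at -1.15 and -0.98, as were Lbr at -0.66 and Stard5 at -0.42. Macrophages also express Soat1, Nceh1, Lipa, Cyp27a1 and Ch25h, and 5 of 12 macrophage markers were lower, with list means of 10.47 to 11.08 in KO and 10.75 to 12.45 in WT. Their part in these falls was not tested.

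A list of 10 other LXR targets had 5 genes higher and 2 lower in total ChREBP KO (median 0.36). Of all probes, 26.3% were called higher and 19.3% lower, with a median of 0.05. Apoc1, a lipoprotein component, was higher by 1.63 ± 0.16 (limma, adjusted p = 1.14e-08) and Lpl, the lipase that releases fatty acids from lipoproteins, by 1.53 ± 0.10 (limma, adjusted p = 5.15e-12). Lpcat3, which remodels phospholipids, was higher by 0.69, Apoe by 0.67 and the phospholipid transfer protein Pltp by 0.66. Arl4c and the sterol transporter Abcg4 were lower at -0.43 and -0.38. Adipocytes express Lpl and Apoe, and the adipocyte list stood at 15.54 to 15.78 in KO and 14.68 to 15.27 in WT, whose part was not tested. In ChREBPβ KO limma called 0 genes of either list, beside 0.0361% of all probes. An unadjusted p under 0.05 was found for 1 of the 23 other sterol genes and for 0 of the 10 other LXR targets.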

How the data were processed

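The authors scanned 26 1-colour arrays with Agilent Feature Extraction 10.10.1.1 and deposited raw spot intensity values on a linear scale with quality calls per spot. They also deposited a table of log2 values of 40168 probes, made by a spot-quality filter, quantile normalization and the median of replicate probes. That table set which probe stood for a gene (highest mean) and was otherwise an alternative. The main values were recomputed from the median intensity without background subtraction. A probe was kept if its spots were found, were positive and significant and stood well above background on 21 or more arrays or on 75% of a group, 1747 outlier spots were set to missing, and log2 values were quantile normalized. This left 38832 probes.

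A mean per group was fitted to all 26 arrays with limma 3.58.1 in R 4.3.3 (lmFit and eBayes, 22 residual degrees of freedom), with Benjamini-Hochberg adjustment over all probes. Calls were made at an adjusted p under 0.05. The fit was tested on simulated data. Correlations of members used numpy 2.4.6, with ranks from scipy 1.17.1, and those over all probes used R. Alternatives changed the values, scaling, filter, blocks, covariates, probe or arrays. The number of arrays limits the precision. P-values measure the spread between mice within groups, since replicates came from separate mice. This spread was pooled per probe over all groups of both lines. The members, the gene lists and the naming rule (per-array values for the 2 largest changes of each role and 7 chosen members, and called genes of the other lists, apart from those not reported here) were chosen with earlier results of these data known. Probe positions are those of the array annotation for mm9, where Hmgcs1 is on an unplaced part of chromosome 13. Exon annotation of mm9 was not used here. Samples sharing a replicate number were not paired.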

Additional observations from a re-analysis of the deposited data

Results flagged for a closer look

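A few arrays stood apart from the rest of their group for a member, by a gap that is large for the range of the group. There were 11 such cases among 120 combinations of member and group, where chance gives about 1 in 20. Replicate 4 of ChREBPβ KO accounted for 3 of them, all low: Scap at 11.95, Nr1h3 at 13.68 and Abca1 at 12.29 (next arrays 12.10, 13.87 and 12.39). Replicate 7 of total ChREBP KO accounted for another 3, with Nr1h3 high at 15.00 (next array 14.65), Scap low at 12.03 (next 12.25) and Npc1 low at 10.90 (next 11.04). Replicate 5 of ChREBPβ KO was high for Idi1 at 13.33 (next 12.98) and for Sqle at 13.11 (next 12.72). Tm7sf2 was low at 10.49 on ChREBPβ KO replicate 6 (next 10.90). In ChREBPβ WT, Hmgcs1 was high at 15.87 on replicate 7 (next 15.53) and Insig1 at 12.18 on replicate 2 (next 11.42). Total ChREBP KO replicate 7 had the highest skeletal muscle list mean of its group, at 13.45, and ChREBPβ KO replicate 4 that of its own group, at 12.88.

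The effect of ChREBPβ loss differed from that of total ChREBP loss for 8 members by the test of the difference (limma, ChREBPβ effect minus total effect, log2 scale). The difference was -0.69 for Hmgcs1, -0.45 for Mvk, -1.08 for Tm7sf2, -0.76 for Ebp, -0.80 for Insig1, -0.22 for Scap, -0.98 for Nr1h3 and -0.38 for Abca1. Of all probes, 22.4% were called in this test, 9.84% higher and 12.6% lower. With the lymphocyte and muscle list means as covariates, Ebp and Nr1h3 kept their calls and the other members named here did not. A second Hmgcs1 probe gave 0.082.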

How the results depend on the processing

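The count of 14 members called in total ChREBP KO was 9 with the lymphocyte and muscle list means as covariates. It was 12 to 15 with 1 array left out, and 10 to 16 under the other alternatives. Of all probes, 45.6% were called in the main fit, and 9.06% were higher and 4.92% lower with the covariates. The count of 0 in ChREBPβ KO was 0 under all of them. The 8 differing members became 2 with slide as a fixed block, 3 with the covariates and 5 to 9 with 1 array left out. Calls over all probes fell too, from 22.4% to 0.512% higher and 1.06% lower with slide as a fixed block. With the covariates they were 2.21% higher and 3.49% lower. For the WT lines, 20 became 13 with slide as a fixed block, 7 with the covariates, 6 of 20 with the second probe and 17 to 20 with 1 array left out. With the replicate number as a block the counts were 14, 0, 8 and 18, where Fdft1 replaced Scap in the difference, and Srebf2 and Stard4 were lost between WT lines. The 6 pairs of KO and WT arrays with the same number in the total line had r of -0.36 to 0.51 (median 0.040, other pairs 0.0018). The 4 such pairs in the ChREBPβ line had r of -0.33 to 0.14 (median 0.043, other pairs -0.038). Whether a shared number marks a real pairing was not tested. Of the 8 correlated pairs, 0 passed, but 3 with the processed and 2 with the median signal scaled to the 75th percentile, and 0 to 2 with 1 array left out (2 without ChREBPβ KO replicate 6, 1 without ChREBPβ WT replicate 7). A second probe turned Nr1h2 in total ChREBP KO to 0.35, and turned Hmgcs1 to 0.082 in the difference and -0.14 between WT lines. The covariates turned Hmgcs1 (-0.14), Ebp (-0.033), Insig2 (-0.086), Srebf1 (-0.031) and Nr1h3 (-0.23) between WT lines. The cause was not tested, except that second probes cover fewer genes and that fewer arrays or more terms leave fewer degrees of freedom. Small changes of members with 5 KO arrays could not be told from 0 at this number of arrays.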
